A study of Mus musculus with 12 samples.

Results

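Among 12774 gene symbols measured in C17.2 cells, 155 moved at least 2-fold in the same direction within 6 h of T3 in both of the lines studied, 110 of them upward and 45 downward. T3 (triiodothyronine) is the active thyroid hormone. A gene was taken when its ratio of T3 to untreated, computed on the RPM (the tags of a gene scaled by the library total) plus 1, was at least 2 or at most 0.5 in the C17.2a pair and in the C17.2b pair of libraries. The 6 h ratios of these genes therefore describe the selection and carry no test.

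C17.2 is an established mouse neural progenitor line. Both lines stably express a tagged thyroid hormone receptor, the alpha receptor in C17.2a and the beta receptor in C17.2b, and no line without added receptor was analysed here. All cells were kept for 24 h without serum, then given T3 at 1e-07 M or left untreated for 6, 12 or 24 h, with 1 library for each line, treatment and time. The untreated 6 h cells of each line are the reference for the T3 6 h cells of the same line. Nothing in the labels says whether a line is a clone or which promoter drives the receptor, and nothing says that libraries came from separate cultures, so any p-value measures only the spread between pairs of libraries.

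Thyroid hormone receptors are transcription factors of the nuclear receptor class that sit on DNA, commonly with a retinoid X receptor, at response elements built from the half-site AGGTCA. Without hormone they recruit corepressors at many target genes, and binding of T3 exchanges these for coactivators, while other genes are repressed by the hormone. In the brain T3 acts on progenitor proliferation, neuronal migration, myelination and metabolism, and a deficit during development impairs brain maturation.

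The 4 libraries of 6 h held an implied 9.39e+06 to 1.90e+07 tags, and 3 tags correspond to 0.158 to 0.319 RPM in them, a floor that covers counting error only. In each line the T3 library was the shallower of the pair, with 1.01e+07 against 1.29e+07 tags in C17.2a and 9.39e+06 against 1.90e+07 in C17.2b, and the part of depth in the ratios of low genes was not tested. Among the progenitor markers, Vim, Nes and Sox2 were present in all 4 libraries (at least 88.4 RPM each), and the summed level of the 14 measured of 18 was 3031 to 3295 RPM untreated and 1862 to 2131 RPM with T3. Most of this sum was Vim, at 2334 and 2374 RPM untreated and 1327 and 1570 RPM with T3, and without it the sum was 697 and 921 RPM untreated and 534 and 561 RPM with T3. Gfap, the defining astrocyte filament, was at 0.94 to 1.59 RPM and the microglial receptor Cx3cr1 at no more than 0.42 RPM. Sox10, an oligodendrocyte and Schwann lineage factor, was at 382 to 759 RPM and the collagen gene Col1a1 at 747 to 2317 RPM, so markers of other lineages were present in these cells beside those of the labelled type. In such bulk libraries, fewer cells of a type and less RNA per cell cannot be told apart. Of the later pairs the C17.2a 24 h one stood apart. The Spearman correlation over all symbols between its T3 and untreated libraries was 0.941, against 0.977 to 0.985 in the other 5 pairs. That value does not tell which of the 2 libraries differs.

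The members higher with T3 made up 0.861% of all symbols and those lower 0.352%, where the C17.2a pair alone had 1.46% and 0.932% past the limit and the C17.2b pair alone 2.1% and 1.09%. With member shares this small, a count of 0 members or 1 member in a short gene list below is no result about that list. For the 110 higher genes the median log2 ratio was 1.39 in C17.2a and 1.71 in C17.2b, and for the 45 lower genes -1.34 and -1.46, where the median of all genes tested was -0.07 and 0.05. On the scale of RPM + 1, 14 of 110 higher genes were at least 4-fold in both pairs and 0 of 45 lower genes were. Of the higher genes 16 of 110 were under 1 RPM in both untreated libraries, and the log2(RPM + 1) scale understates their fold. It also understates the fold of the 6 of 45 lower genes that were under 1 RPM in both T3 libraries, so the 2 counts are not a plain comparison of the directions. The selection used these same 4 libraries and favours groups that do not overlap, so the next counts describe it and support nothing. The 2 T3 libraries lay wholly above the 2 untreated ones for 110 of 110 higher genes, where 17.6% of all symbols did so. For the lower genes the T3 libraries lay wholly below for 41 of 45 (15.4% of all symbols), the exceptions being Adamts4, AI414108, Gas7 and Btc, whose levels differed so much between lines that the T3 level of 1 line was above the untreated level of the other.

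The limit of 2-fold separates like values. Just inside it lay Tmem86a (log2 ratios 1.0 in C17.2a and 1.03 in C17.2b), Zhx3 (1.01 and 1.29) and Atp1b2 (1.02 and 1.91), and just outside it Fam185a (just under 1.0 in C17.2a and 1.42), Dhrs7 (just under 1.0 and 1.41) and Chst11 (0.99 and 1.87). On the lower side Rai14 (-1.0 and -1.19), Ntm (-1.28 and -1.01) and Adamts4 (-1.04 and -1.01) were inside, and Slc16a7 (-1.14 and -0.98), Cdsn (-1.09 and -0.97) and P2ry12 (-0.97 and -1.01) outside. The count rests on the pseudocount, since 206 genes qualified with RPM + 0.5 and 67 with RPM + 5.

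**Figure D1:**
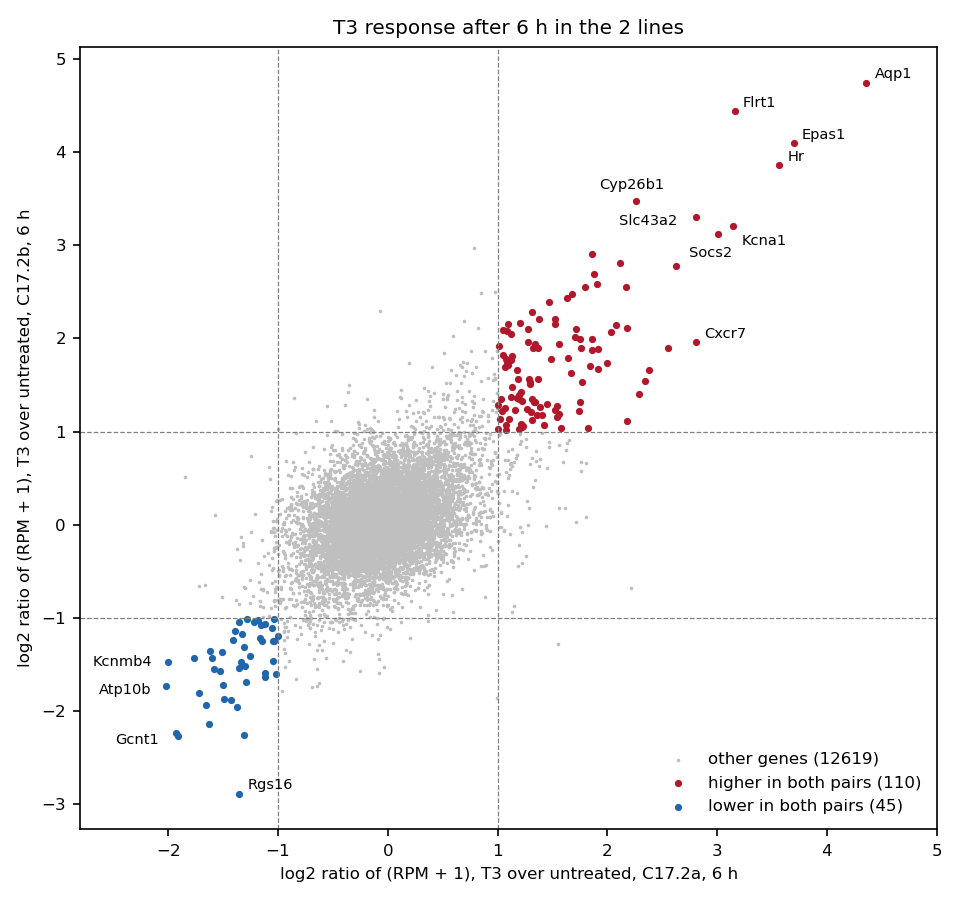
Log2 ratio of (RPM + 1), T3 over untreated, after 6 h in C17.2a (horizontal axis) and in C17.2b (vertical axis), with 1 point per gene, members coloured by direction and all other symbols in grey. The 110 higher members fill the upper right and the 45 lower members the lower left, with Aqp1 the highest at 4.36 and 4.74 and Rgs16 the lowest in C17.2b at -2.88.

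A model over all 12 libraries (limma, with each pair of a T3 and an untreated library as a block and a T3 effect per time) called 17 of 10577 genes at 6 h, or 0.161% (0.113% higher and 0.0473% lower), at an adjusted p under 0.05. All 17 were members, but the fit shares its contrast with the selection, so this supports nothing. Among them were Epas1, Hr, Kcna1, Socs2, Slc43a2, Cyp26b1, Cxcr7, Nrp1, Por, Pfkfb2 and Oaf above and Gas7, Cyp2j9, Syt4, Kctd12 and Gcnt1 below. The count was 0 without the C17.2a or the C17.2b 6 h pair (396 and 296 genes at an unadjusted p under 0.05 in limma), 3 without either of the 12 h pairs, and 680 without the C17.2a and 682 without the C17.2b pair of 24 h.

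Several of the strongest responders were near 1 to 4 RPM without hormone. Aqp1, a water channel, was at 3.32 RPM untreated and 87.7 RPM with T3 in C17.2a, and at 3.51 and 119.8 RPM in C17.2b. Its log2 ratios were 4.36 and 4.74. Epas1, the hypoxia-inducible factor HIF-2alpha, was at 3.32 and 1.89 RPM untreated and at 55.1 and 48.4 RPM with T3, in C17.2a and C17.2b in that order. Flrt1, a leucine-rich repeat protein of the cell surface that acts in adhesion and axon guidance, was at 1.16 and 1 RPM untreated and 18.3 and 42.2 RPM with T3. For Flrt1 the T3 level of C17.2b was more than that of C17.2a. The potassium channel gene Kcna1, with Aqp1, Epas1, Flrt1, Hr and Socs2 one of the 6 genes at least 8-fold higher in both pairs, was at 24.7 RPM untreated and 226 RPM with T3 in C17.2a and 64.4 and 600.0 RPM in C17.2b. Its untreated levels differed between lines, and its log2 ratios of 3.14 and 3.20 were close.

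Hr, which encodes the corepressor Hairless, a partner of the hormone's receptors and a classical T3 target in brain, was at 2.16 and 4.29 RPM untreated and at 36.4 and 75.5 RPM with T3. Socs2, which dampens cytokine and growth hormone signalling through JAK and STAT proteins, was at 7.04 and 5.66 RPM untreated and 63.7 and 56.8 RPM with T3, with almost the same log2 ratio in both lines (3.01 and 3.12). Slc43a2, a transporter of large neutral amino acids, followed with log2 ratios of 2.81 and 3.30. Npnt, an extracellular matrix ligand of integrins, was at 0.31 and 0.16 RPM untreated, where the C17.2b level equals 3 tags, and at 7.06 and 6.92 RPM with T3. Slc1a2, the main glutamate transporter of astrocytes, was under the level of 3 tags in both untreated libraries (0 and 0.10 RPM) and at 4.87 and 3.09 RPM with T3, so no fold is given for it.

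**Figure D2:**
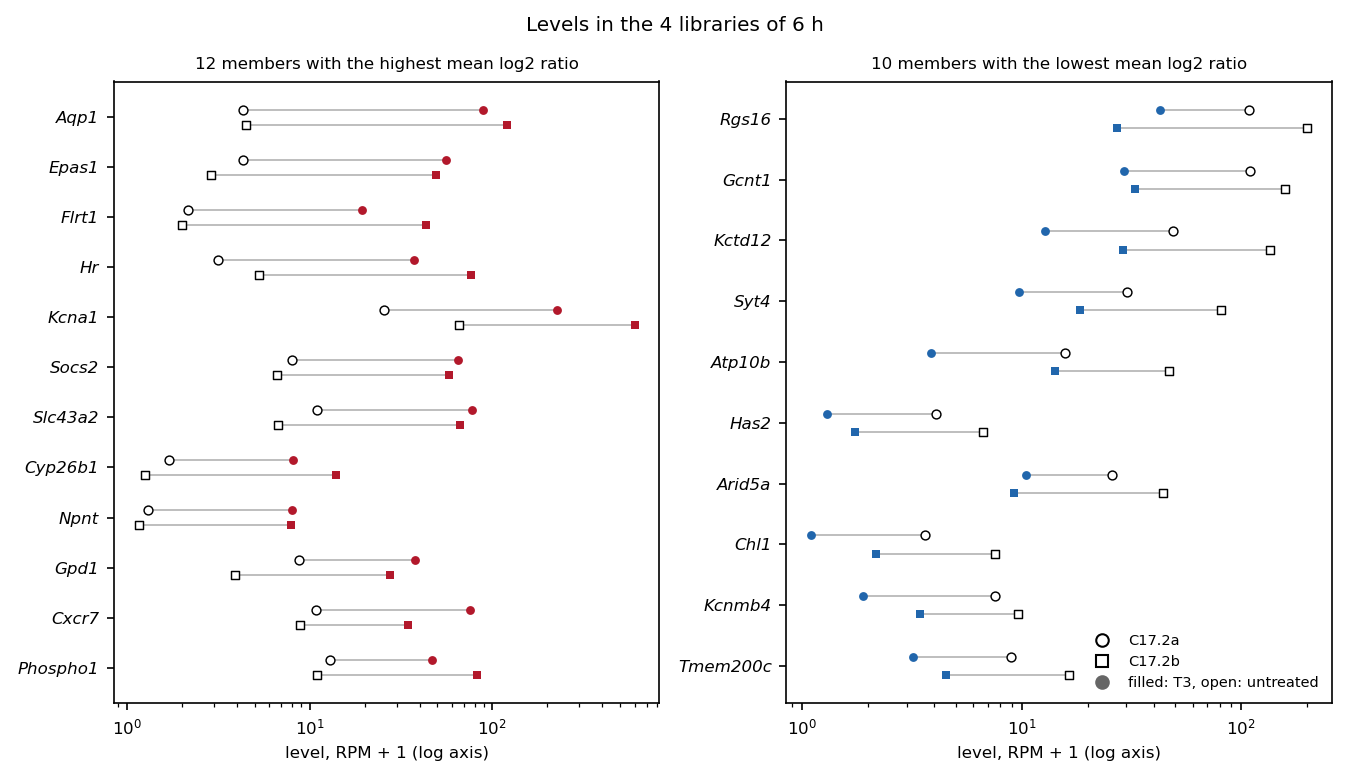
Level in RPM, on a log axis of RPM + 1, of the 12 members with the highest and the 10 with the lowest mean log2 ratio in each of the 4 libraries of 6 h, with filled symbols for T3, open ones for untreated, circles for C17.2a and squares for C17.2b. The T3 points of Aqp1 (87.7 and 119.8 RPM) lie far to the right of its untreated points (3.32 and 3.51 RPM), and those of Rgs16 (41.5 and 26.1 RPM) to the left of 107 and 199 RPM.

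Promoter sequence was read for the 80 higher and 29 lower members with an entry in the RefSeq promoter table of build GRCm38.p6, over the 250 bases before the annotated start. The half-site AGGTCA, searched on both strands, was in 12 of 80 higher members (15%), in 1 of 29 lower members (3.45%, Rai14) and in 15.8% of 27025 genes. The direct repeat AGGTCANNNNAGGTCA, the arrangement best known for thyroid hormone receptors, was in 0 of either group and in 0.0148% of all genes. Its absence says only that these letters are not in these windows. The looser AGGNCANNNNAGGNCA was in 1 of 80 higher members, Tmem117, and in 0.244% of all genes.

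Shown are 3 higher members with a half-site, Npnt as a strong responder, Nrp1 as a receptor and Stat5a as a transcription factor, beside Klf9, a well-known T3 target with none in the window. Each is written 5′ to 3′ in the direction of the gene and ends just before the start. Capitals mark the half-site, and TGACCT is the same site on the other strand. The windows are chr3:132950292-132950541 on the minus strand for Npnt, and on the plus strand chr8:128358823-128359072 for Nrp1, chr11:100859406-100859655 for Stat5a and chr19:23140976-23141225 for Klf9. The half-site begins 188 bases before the start in Npnt, 246 in Nrp1 and 46 in Stat5a.
Npnt: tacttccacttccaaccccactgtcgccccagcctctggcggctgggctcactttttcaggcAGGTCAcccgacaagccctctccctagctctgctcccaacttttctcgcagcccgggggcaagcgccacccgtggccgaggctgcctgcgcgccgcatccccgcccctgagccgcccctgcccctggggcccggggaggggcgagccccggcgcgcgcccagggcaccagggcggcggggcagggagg
Nrp1: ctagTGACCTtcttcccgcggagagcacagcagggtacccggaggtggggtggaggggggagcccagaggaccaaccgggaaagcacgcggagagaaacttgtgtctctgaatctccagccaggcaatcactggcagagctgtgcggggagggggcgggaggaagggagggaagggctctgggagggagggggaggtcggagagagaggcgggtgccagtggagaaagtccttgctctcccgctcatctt
Stat5a: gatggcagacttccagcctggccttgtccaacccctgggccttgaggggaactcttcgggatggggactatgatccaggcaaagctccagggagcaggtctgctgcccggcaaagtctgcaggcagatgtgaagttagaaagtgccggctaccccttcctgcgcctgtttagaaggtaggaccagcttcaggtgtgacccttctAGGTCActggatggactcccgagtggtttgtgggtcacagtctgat
Klf9: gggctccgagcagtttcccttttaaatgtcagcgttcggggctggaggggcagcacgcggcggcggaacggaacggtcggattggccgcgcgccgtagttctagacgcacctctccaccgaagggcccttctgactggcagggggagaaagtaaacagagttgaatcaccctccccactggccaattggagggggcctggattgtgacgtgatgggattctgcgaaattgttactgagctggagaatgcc
A match describes the letters of the window and does not show that a receptor binds there.

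The transcription factors among the members held both hormone-pathway regulators and factors of other systems. Klf9, a Krüppel-like factor, was at 10.4 and 10.2 RPM untreated and 24.9 and 34.2 RPM with T3. It was the only member among the 15 measured KLF factors, and the median log2 ratio of the 11 tested was -0.02. Rara, the alpha receptor of retinoic acid, was at 14.5 and 10.9 RPM untreated and 30.6 and 29.3 RPM with T3. Enzymes of retinoid turnover were members as well: Cyp26b1, which breaks down retinoic acid, had log2 ratios of 2.26 and 3.47, and Rdh5, a retinol dehydrogenase, of 1.38 and 1.26. Of the other factors, Bhlhe40, a repressor in the clock and hypoxia pathways, reached 17.7 and 18.2 RPM from 6.73 and 3.93 RPM. Tcfeb (current symbol Tfeb), a regulator of lysosomal genes, had log2 ratios of 1.56 and 1.93, Jarid2, a partner of the polycomb complex PRC2, of 1.20 and 1.39, and Gli3, a transducer of hedgehog signals, of 1.10 and 1.14. Hlf and Stat5a were members from near-silent levels, with at most 1.92 RPM for Hlf and 2.58 RPM for Stat5a with T3.

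The receptors that carry the signal gave few tags. Thra, which encodes the alpha receptor, was at 3.40 and 3.30 RPM untreated and 2.68 and 2.34 RPM with T3, and Thrb, which encodes the beta receptor, at 1.55 and 1.94 RPM untreated and 2.19 and 1.70 RPM with T3. For Thra both T3 libraries were below both untreated ones, as for 15.4% of all symbols, and for Thrb the groups overlapped. In limma at 6 h the Thra change was -0.31 on the log2 scale (SE 0.47). Its log2 ratios in C17.2a and C17.2b were 0.17 and 0.07 at 12 h and -2.42 and -0.28 at 24 h. Whether these levels hold tags of the added receptors is not given in the sources used here.

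Other strong responders above served the cytoskeleton, signalling and metabolism. Phospho1, a phosphatase of phosphocholine known from bone mineralisation, was at 11.9 and 9.95 RPM untreated and 45.9 and 81.1 RPM with T3, with the larger ratio in C17.2b. Epb4.9 (current symbol Dmtn), the actin-bundling protein dematin, had log2 ratios of 1.79 and 2.56, and Myo18a, an unconventional myosin, of 2.18 and 1.12. Among signalling enzymes were Ralgds, an exchange factor for Ral GTPases (2.18 and 2.11), Mapkapk3, a kinase downstream of p38 (2.07 and 2.14), and Itpk1, an inositol phosphate kinase (1.68 and 2.47). In all of these, as in every higher member, both T3 libraries were above both untreated ones, a separation that the selection favours. Tmem117, a membrane protein of the endoplasmic reticulum and plasma membrane, was at 3.25 and 2.30 RPM untreated and 14.9 and 18.8 RPM with T3. Cdkn2c, an inhibitor of the cyclin-dependent kinases of G1, was at 0.62 and 0.63 RPM untreated and 2.78 and 3.09 RPM with T3, and was the only member among 23 measured G1 regulators, whose median log2 ratio was -0.10. The 25 measured genes of S phase and mitosis held 0 members and had a median of -0.06.

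Several higher members belong to lipid and energy metabolism, a grouping by role that was made after the values were seen, as were those of the other paragraphs beyond the gene lists. Lower members with such roles were Cyp2j9, a cytochrome P450 enzyme of fatty acids (log2 ratios -1.60 and -1.43), and the flippase Atp10b. Dgat2, which makes the last step of triglyceride synthesis, was at 71.0 and 106 RPM untreated and 151 and 451 RPM with T3. Its log2 ratio was 1.08 in C17.2a, just past the limit, and 2.08 in C17.2b. Fasn, the fatty acid synthase, was nearer the limit in both lines, with 44.9 and 43.0 RPM untreated and 93.7 and 101 RPM with T3. Gpd1, which supplies glycerol 3-phosphate, had log2 ratios of 2.11 and 2.81, Lpin3, a phosphatidate phosphatase, of 1.88 and 2.69, and Slc27a1, a fatty acid transport protein, of 1.72 and 2.10. Mfsd2a, which carries lysophospholipids of docosahexaenoic acid into brain, was at 5.03 and 3.35 RPM untreated and 23.1 and 13.5 RPM with T3. Por, the reductase that feeds electrons to microsomal cytochrome P450 enzymes, was at 164 and 116 RPM untreated and 558 and 436 RPM with T3. Abca1, the cholesterol exporter, was at 0.15 and 0.31 RPM untreated and 3.08 and 1.70 RPM with T3, and was the only member of 19 measured genes of cholesterol synthesis and uptake. Pfkfb2, which sets the level of a fructose bisphosphate that activates glycolysis, had log2 ratios of 1.91 and 1.67.

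Of the 22 measured genes of fatty acid synthesis, 3 were members and the median log2 ratio of the 20 tested was 0.15, against -0.01 for all genes tested. Srebf1, the transcription factor that controls this pathway, was no member because its ratio in C17.2b missed the limit (log2 1.26 and 0.83), although its level was 237 and 179 RPM untreated and 568 and 320 RPM with T3. Scd1, the stearoyl-CoA desaturase, missed it in C17.2a (0.97 and 1.56). The 24 measured genes of mitochondrial biogenesis and oxidative phosphorylation held 0 members, and the 23 tested had a median of 0.12.

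Channels and transporters of the plasma membrane were found on both sides. Hcn2, a subunit of pacemaker channels, was a higher member with log2 ratios of 1.38 and 2.21. Of the 35 measured potassium channel subunits of the Kcn series, Kcna1 was a higher member and Kcna4 and Kcnmb4 were lower ones. Kcna4, which belongs to the same Shaker family as Kcna1, was at 1.78 and 3.82 RPM untreated and 0.10 and 0.74 RPM with T3, the C17.2a value being under the level of 3 tags. Kcnmb4, an auxiliary subunit of calcium-activated potassium channels, was at 6.57 and 8.59 RPM untreated and 0.89 and 2.45 RPM with T3. Among 225 measured solute carriers, 5 were higher members and 0 lower ones, where 0.861% and 0.352% of all symbols were. These were the glutamate transporter Slc1a2, the glutamine transporter Slc1a5, Slc27a1, the nucleotide sugar transporter Slc35a3 and Slc43a2.

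Signalling and vascular genes included ligands and receptors. On the ligand side Vegfa, the growth factor of blood vessels, was at 7.11 and 5.08 RPM untreated and 22.3 and 27.0 RPM with T3, and Apln, the ligand of the apelin receptor, at 30.5 and 32.9 and then 83.3 and 69.9 RPM. On the receptor side Nrp1, shared by semaphorins and VEGF, was at 52.2 and 79.4 RPM untreated and 192 and 319 RPM with T3. Its semaphorin partners Plxna1 (log2 ratios 1.47 and 2.39) and Plxnd1 (2.29 and 1.40) were members too, while 0 of 18 measured semaphorins were. Cxcr7 (current symbol Ackr3), which scavenges the chemokine CXCL12, was at 9.82 and 7.86 RPM untreated and 74.8 and 33.5 RPM with T3. Arrdc3, an arrestin-domain protein that promotes receptor endocytosis, was the only member of 5 measured genes of its family, with log2 ratios of 2.38 and 1.66 where the median of the 5 was -0.36. F3, the tissue factor that starts coagulation, had ratios of 1.74 and 1.22, and Lgi4, a secreted protein of peripheral myelination, was at 273 and 193 RPM with T3 against 53.2 and 65.4 RPM untreated.

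The genes lower at 6 h included genes of neuronal adhesion and of the neuronal cytoskeleton. Of 14 measured neuronal genes 5 were lower members and 0 were higher ones, where 0.352% of all symbols were lower members. The median log2 ratio was -0.79 over the 11 tested and -0.36 over all 14, against -0.01 for all genes tested. This list was chosen with earlier results of these data known, so its count is no independent evidence. Syt4, a synaptotagmin of secretory vesicles, was at 29.2 and 79.8 RPM untreated and 8.75 and 17.3 RPM with T3. The cell adhesion molecule L1cam was at 37.7 and 59.97 RPM untreated and 16.3 and 25.3 RPM with T3. Its relative Chl1 was at 2.63 and 6.60 RPM untreated, and at 0.10 RPM with T3 in C17.2a, under the level of 3 tags, and 1.17 RPM in C17.2b. The neurofilament genes Nefl and Nefm were low throughout, with at most 2.62 and 6.02 RPM untreated, and lower with T3, at most 0.53 and 1.60 RPM. The list was not uniform, since Tubb3, the neuronal beta-tubulin, was at 69.9 and 91.2 RPM untreated and 97.0 and 172 RPM with T3. Of the 14 measured progenitor markers Gli3 was a higher member and 0 were lower ones. The ratio was above 0 in both lines for 3 of the 14 and below 0 in both for 7, with a median log2 ratio of -0.27. Sox2 was at 186 and 306 RPM untreated and 95.0 and 88.4 RPM with T3, and Notch1 had log2 ratios of -1.07 and -0.89. Hes1 was at 42.7 and 46.7 RPM untreated and 48.1 and 47.5 RPM with T3, and Nes at 110.3 and 111 RPM untreated and 98.1 and 129 RPM with T3. The part of these marker shifts in the ratios of the neuronal genes was not tested.

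Other adhesion genes on the lower side were Ntm, a neuronal immunoglobulin protein, Cdh10, a cadherin, Lrrtm2, a synapse organiser, and Mcam. Mcam, a melanoma cell adhesion molecule also found on vessels, was at 30.7 and 56.9 RPM untreated and 14.2 and 26.0 RPM with T3. Matrix genes were found in both directions. Has2, a hyaluronan synthase, was at 3.09 and 5.66 RPM untreated and 0.30 and 0.74 RPM with T3, and the proteoglycan-cleaving enzymes Adamts1 and Adamts4 had log2 ratios of -1.30 and -1.68 and of -1.04 and -1.01, while Adamts17 was a higher member. Atp10b, a phospholipid flippase, was at 14.8 and 45.9 RPM untreated and 2.88 and 13.2 RPM with T3. Mest, an imprinted gene of the alpha/beta hydrolase fold, was at 137 and 87.6 RPM untreated and 47.7 and 26.0 RPM with T3, and Prickle2, a planar cell polarity protein, had log2 ratios of -1.58 and -1.54. For Atp10b the T3 level of C17.2b was just below the untreated level of C17.2a. Gcnt1, which builds core 2 branches of O-glycans, had one of the lowest ratios, with 109 and 157 RPM untreated and 28.1 and 31.8 RPM with T3.

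The lower members also included genes of growth factor and G protein signalling, while others with such roles, among them Vegfa, Arrb1, Arrdc3 and Ralgds, were higher members. Rgs16, which accelerates the shut-off of G proteins, was at 107 RPM untreated and 41.5 RPM with T3 in C17.2a and at 199 and 26.1 RPM in C17.2b, the widest gap between lines among all members. It was the only member of 12 measured RGS genes. Kctd12, an auxiliary subunit of GABA type B receptors, was at 47.6 and 135 RPM untreated and 11.7 and 27.9 RPM with T3, and was the only member of 17 measured KCTD genes. The fibroblast growth factor Fgf5 was at 187 and 326 RPM untreated and 89.95 and 117 RPM with T3. Spry2, a feedback inhibitor of receptor tyrosine kinases, had log2 ratios of -1.35 and -1.53 and was the only member of 20 measured feedback inhibitors of MAP kinase signalling, whose median over the 18 tested was -0.09. Btc, a ligand of the epidermal growth factor receptor, had ratios of -1.02 and -1.61. Of the 22 measured AP-1 and immediate early genes only Jun was a member, at 206 and 398 RPM untreated and 85.8 and 149 RPM with T3. Shc4, an adaptor of receptor tyrosine kinases, was at 12.1 and 19.1 RPM untreated and 3.88 and 4.47 RPM with T3. Bambi, a decoy receptor of the TGF-beta and BMP pathway, was the only member of 26 measured genes of that pathway, with log2 ratios of -1.18 and -1.02. Among transcription factors, Arid5a and Bach2 were also lower, Arid5a at 24.9 and 43.0 RPM untreated and 9.44 and 8.19 RPM with T3.

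Lists of related genes, all chosen with earlier results of these data known, place these members among their neighbours. Of all symbols 0.861% were higher members and 0.352% lower ones. Of 31 measured genes known to respond to T3, 7 were members, namely Hr, Klf9, Fasn, Stat5a, Kcna1 and Epas1 above and Nefm below, and the median log2 ratio of the 26 tested was 0.57, or 0.37 over all 31. This list was drawn up with results of these libraries known and is no independent evidence of direction. Of 33 measured hypoxia response genes 3 were members (Epas1, Vegfa and Bhlhe40) with a median of 0.56 over the 31 tested, and Ankrd37, a hypoxia-induced ankyrin protein, came next with log2 ratios of 1.21 and 0.90. The 17 measured clock genes had 2 members (Hlf and Bhlhe40) and a median of 0.58 over the 14 tested, or 0.39 over all 17. Within that list Dbp, a partner of Hlf, was higher (0.99 and 1.87), and Arntl, a core activator of the clock, lower (-0.67 and -1.15), so the list held ratios of both signs. The 23 measured serum response factor and cytoskeleton genes had 0 members and a median of -0.37 over the 21 tested. Cytosolic ribosomal protein genes had 0 members of 32 and a median of 0.00 over the 31 tested. Of 14 measured astrocyte genes 3 were higher members (Aqp1, Slc1a2 and Atp1b2), and the summed level of the list was 295 to 325 RPM untreated and 393 to 409 RPM with T3. The difference of Aqp1 alone was larger than that of the list in both lines, and Gja1, a gap junction protein, was at 214 and 196 RPM untreated and 184 and 177 RPM with T3.

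The size of the response was not the same in the lines, and with 1 pair per line at 6 h this difference has no test. At 6 h the log2 ratio was the larger one in C17.2b for 73 of 110 higher genes, or 62 after median-ratio scaling, an alternative added after the data were seen. Of all genes tested 61.3% had the higher ratio in C17.2b, and 48.5% after that scaling, so the count at 6 h is near that of all genes on the deposited scale. At 12 h, in other libraries, it was larger in C17.2b for 76 of 110 (75 after scaling), where 51.7% of all genes tested were higher (52.9%). Of the lower genes 28 of 45 were further down in C17.2b at 6 h (32 after scaling), where 38.7% of all genes tested were lower in C17.2b (51.5%). At 12 h they were 34 of 45 (32 after scaling), where 48.3% were (47.1%). The order of the lines at 6 h and at 12 h was the same for 53 of the 73 higher and 24 of the 28 lower genes with the stronger ratio in C17.2b, and for 14 of the 37 and 7 of the 17 with the stronger ratio in C17.2a. Over all genes tested, 55.0% of those with the higher ratio in C17.2b at 6 h and 53.6% of those with the higher ratio in C17.2a kept the sign at 12 h. The largest gaps were those of Rgs16 (-1.35 in C17.2a and -2.88 in C17.2b), Flrt1 (3.16 and 4.43), Cyp26b1 (2.26 and 3.47), Myo18a (2.18 and 1.12), Synpo (1.10 and 2.15) and Phospho1 (1.86 and 2.91). Rgs16 kept its gap at 12 h (-1.32 and -2.78) and at 24 h (-0.53 and -3.01), while that of Cyp26b1 closed at 12 h (1.77 and 1.95).

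Untreated levels of the lower genes were also unequal between lines. The RPM + 1 scale understates falls from low levels, and the part of these levels in the line comparison above was not tested. At 6 h 37 of 45 were higher in untreated C17.2b than in untreated C17.2a, and at 12 and 24 h, in libraries the selection did not use, 41 and 36 of 45 were. The median log2 ratio of C17.2b to C17.2a was 0.61, 0.69 and 0.45 at the 3 times, and the percentage of all genes tested that were higher in C17.2b was 40.1, 51.8 and 41.2. Gas7, an actin-associated protein of neurite outgrowth, was at 556 RPM untreated in C17.2a and 1366 RPM in C17.2b, and at 221 and 607 RPM with T3. For the higher genes the numbers were 52, 64 and 48 of 110.

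The 8 libraries of 12 and 24 h took no part in the selection and share no control with the 6 h pairs, so the members can be tested in them. At 12 h the higher genes had a median log2 ratio of 1.57 in C17.2a and 1.78 in C17.2b, and the lower genes -1.04 and -1.36. Both pairs of 12 h had the sign of 6 h for 108 of 110 higher genes and 45 of 45 lower genes, where 35.5% of all symbols were higher in both and 23.9% lower in both. At least 2-fold in both pairs were 84 of 110 higher genes, or 76.4%, against 1.09% of all symbols, and 22 of 45 lower genes, or 48.9%, against 0.337%. At 24 h 44 of 110 higher genes and 16 of 45 lower genes were past 2-fold in both pairs, against 1.01% and 0.595% of all symbols. All 4 later pairs were past 2-fold for 40 higher and 14 lower genes.

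In the limma fit of 1 T3 effect over these 4 later pairs, 153 members passed the filter on low values and 64 were called at an adjusted p under 0.05, each in its 6 h direction. They were 47 of 109 higher genes, where 1.05% of all genes tested rose, and 17 of 44 lower genes, where 0.343% fell. Adjusted p of the calls ran from 0.000716 to 0.048 in limma among the higher genes and from 0.00419 to 0.0432 among the lower ones, with log2 fold changes of 0.86 to 4.26 and of -2.30 to -0.82. Of the members tested, 12 reached 1 RPM under 1 treatment only, and of the other 141 a call was made for 57. These calls rest on few pairs. Without the C17.2a 24 h pair, the one that stood apart, 139 of 151 members were called, 100 of 108 higher and 39 of 43 lower, but so were 9.54% of all genes, 6.69% above and 2.85% below. With the 12 h pairs only, 120 of 131 members were called, where 7.58% of all genes were, 5.13% above and 2.45% below. This fit and those with a pair left out had fewer residual degrees of freedom than that of 4 pairs. Without the C17.2a 12 h or the C17.2b 12 h pair 5 members were called, and without the C17.2b 24 h pair 3. The calls of Epas1, Hr and Kcna1 held whichever pair was left out.

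Epas1 rose by 4.26 (SE 0.15, n = 4 pairs) on the log2 scale in the later pairs, with an adjusted p of 0.000716 in limma and at most 0.0284 with a pair left out. Its log2 ratios of 4.01 and 4.38 at 12 h and 4.19 and 4.48 at 24 h were each above the 6 h ratio of the same line (3.70 and 4.10). Hr rose by 3.46 (SE 0.16, adjusted p 0.00158 in limma, at most 0.042 with a pair left out), near its 6 h ratios of 3.56 and 3.86. Kcna1 rose by 3.70 (SE 0.17, adjusted p 0.00158 in limma, at most 0.042 with a pair left out). Socs2, Slc43a2, Cxcr7 and Arrdc3 rose by 3.22, 2.85, 3.71 and 3.02 (adjusted p 0.00758, 0.00618, 0.00335 and 0.00618 in limma), and their highest adjusted p with a pair left out was 0.0852, 0.0852, 0.0676 and 0.0806 in limma. Kctd12 fell by 2.30 (SE 0.14, adjusted p 0.00419 in limma, up to 0.0806 with a pair left out), Atp10b by 2.17 (SE 0.22, adjusted p 0.0132, up to 0.131), and Chl1 by 1.98 (SE 0.23, adjusted p 0.0165, up to 0.133). Syt4 and Jun also fell, by 1.41 and 1.34 (adjusted p 0.0119 and 0.0101 in limma, up to 0.157 and 0.114). Nefm fell by 1.54 (adjusted p 0.0165 in limma, up to 0.181). It reached 1 RPM in untreated libraries only, so its call is no support.

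**Figure D3:**
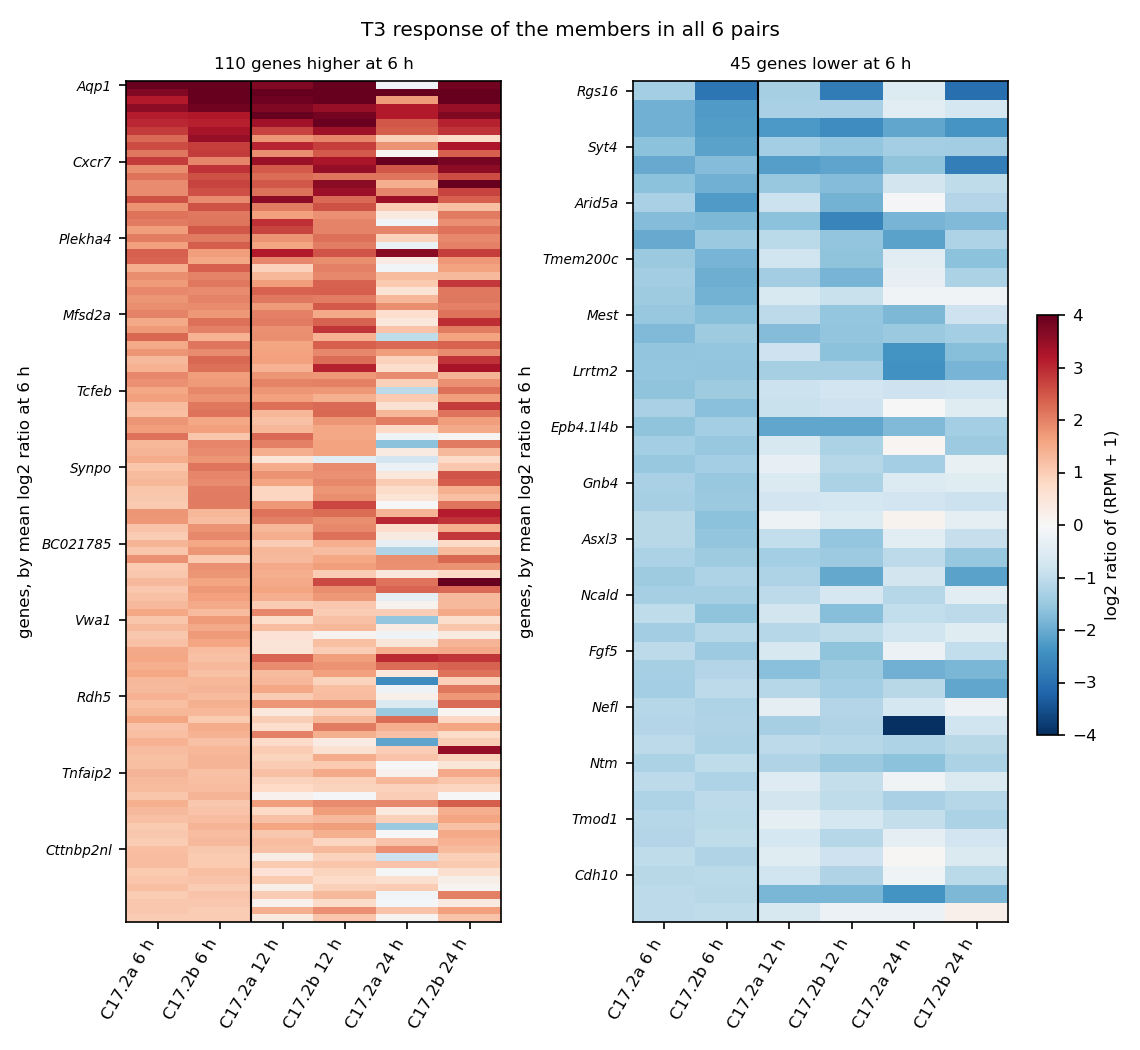
Log2 ratio of (RPM + 1), T3 over untreated, of the 155 members (rows, by 6 h mean) in the 6 pairs (columns, by time and line), with red for higher and blue for lower and the colour ending at 4 in either direction. Only some rows carry a gene name, and the C17.2a 24 h column breaks the pattern, with 26 of 110 higher genes below 0 there against 1 in C17.2b at 24 h.

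From 6 to 12 h the ratios of single genes took different courses. The members whose ratios were furthest from 0 at 12 h relative to 6 h, by the mean of both lines, included Mcam (from -1.06 and -1.10 to -1.81 and -1.82), Slc35a3 (from 1.08 and 1.02 to 1.41 and 1.84), Cox7a1, Drp2 and Apln. Cox7a1, a subunit of cytochrome c oxidase found in muscle, reached 2.18 and 4.37 at 24 h. Those that kept least included Tmem5, Gtf2ird2, Tmeff2, Gpr37l1 and Adamts4. Tmem5 (current symbol Rxylt1), an enzyme of dystroglycan glycosylation, went from 1.12 and 1.37 to 0.16 and -0.05. Among the stronger lower genes Gcnt1 went from -1.91 and -2.26 at 6 h to -1.28 and -1.31 at 12 h. At 24 h its ratios were -0.44 and -0.71. It was not called over the later pairs (adjusted p 0.0876 in limma), but was called without the C17.2a 24 h pair (adjusted p 0.0039 in limma). By the mean of both lines 58 of 110 higher genes and 12 of 45 lower genes were further from 0 at 12 h than at 6 h. Whether a single gene differed between 6 and 12 h was not tested.

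**Figure D4:**
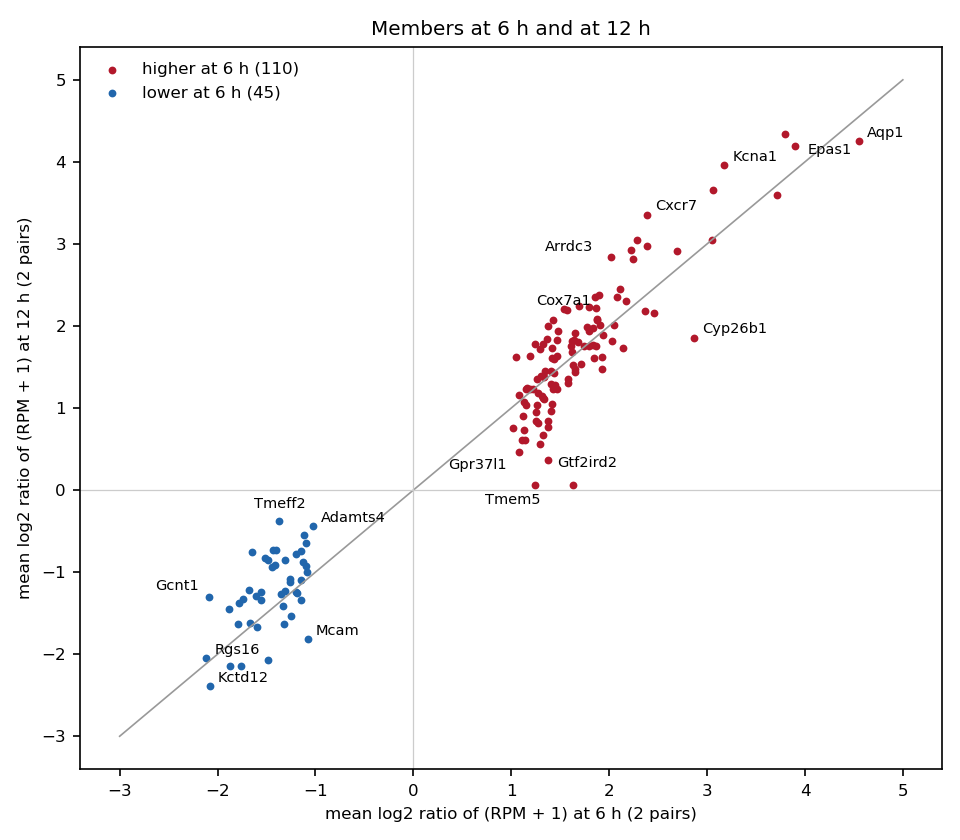
Mean log2 ratio over the lines at 6 h (horizontal axis) and at 12 h (vertical axis) for the 155 members, with the line of equal values drawn. Points near the horizontal zero line, such as Tmem5, had ratios near 0 at 12 h, and points beyond the line of equal values, such as Mcam and Cox7a1, had ratios further from 0 at 12 h.

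In the C17.2a 24 h pair 26 of 110 were below 0, among them Furin, a proprotein convertase, at -1.64 against 2.07 in the C17.2b 24 h pair, Rara at -1.48 against 1.18, Klf9 at -0.40 against 1.28 and Aqp1 at -0.16 against 3.86. In C17.2b at 24 h 89 of 110 were past 2-fold, and in C17.2a 48. GC content moved with these ratios, and its part in them was not tested. The 26 genes below 0 had a median GC content of 57.3% in their GENCODE M21 transcripts, the 36 genes between 0 and 1 had 54.1%, and the 48 genes of at least 1 had 50.2%. Over 10484 genes of that annotation the Spearman correlation of GC content with the log2 ratio was -0.34 in this pair and 0.01 to 0.15 in the other 5, a description across genes of single libraries. At 6 h the higher members had a median GC content of 53.8%, the lower members 47.7% and all genes tested 49.6%, with correlations over all genes of 0.09 in C17.2a and 0.15 in C17.2b, and the part of GC content in the 6 h ratios was not tested. Aqp1, Klf9 and Rara were not called over the 4 later pairs (adjusted p 0.149, 0.322 and 0.658 in limma), and were called without this pair (0.000128, 0.00115 and 0.00109).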

How the data were processed

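The authors deposited 1 table of 12774 gene symbols by 12 libraries, 1 library for each of 2 lines, 2 treatments and 3 times. Its values are RPM, tags of a gene scaled by the library total, a unit read from the equal sums of the deposited columns. Per the submitters' processing notes the build was mm9. How tags were aligned, assigned to genes and filtered is not given in the sources used here. N/A, present in at least 1 library for 1877 symbols, was read as 0, which touched 2 higher and 2 lower members. Between 88.6% and 93.1% of low values were whole multiples of what 1 tag is worth (tolerance 0.0055 RPM), too few to rebuild tag numbers, and no count test was run. The step implies 7.10e+06 to 1.90e+07 tags per library.

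Ratios are of RPM + 1. Tests used log2(RPM + 1) in limma 3.58.1 (R 4.3.3) with lmFit, eBayes with trend and Benjamini-Hochberg adjustment at 0.05 over all genes that reached 1 RPM in 3 or more of a fit's libraries. Each pair of a T3 and an untreated library of 1 line and time was a block, which left 3 residual degrees of freedom in either main fit. Fits of a single time or with a pair left out had fewer, and lean more on the spread that eBayes shares across genes. The code was tested on simulated data with known changes. Alternatives were other pseudocounts, filters, fold limits and scalings, single lines or times, and leaving out each pair. Groups held 1 library, so the lines and times are the only repeats.

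The members, gene lists and tests were chosen with earlier results of these data known. Named genes were the 20 highest and 15 lowest members, the 3 on each side of the limit, members in a gene list or family, the 6 with the largest gap between lines, the 6 with the largest and the 6 with the smallest ratio of 12 h to 6 h, up to 4 further genes of a list, and Thra, Thrb, Hr and Klf9. Further members, such as Nrp1, Plxna1, Plxnd1, Por, Pfkfb2, Mfsd2a, Lgi4, F3, Hcn2, Furin, Tcfeb, Jarid2, Rdh5, Gas7, Fgf5, Btc, Cdh10, Lrrtm2 and Bach2, and Vwa1, Ano8, Camk2a and Hspg2, were named after their values were seen. Some genes that the rule names are not reported here. Of the members' symbols 154 of 155 matched a current RefSeq symbol, 11 of them under a new name. GENCODE M21 transcripts (GRCm38) gave GC content, and the RefSeq promoter table of GRCm38.p6 gave sequence by symbol. No coordinate of the deposited data was used.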

Additional observations from a re-analysis of the deposited data

How the results depend on the processing

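The selection at 6 h held 155 genes. It held 67 with RPM + 5, 249 with RPM as deposited (at least 1 RPM in either library of a pair, and 0 set to 3 tags), 558 at 1.5-fold, 41 at 3-fold, 306 in the C17.2a pair alone and 407 in the C17.2b pair alone. Median-ratio scaling gave 160, of which 143 were shared. The 17 genes called at 6 h in limma became 11 without a filter, 26 under median-ratio scaling and 800 with the 6 h libraries only, and 0 to 682 with a pair left out (680 without the C17.2a and 682 without the C17.2b pair of 24 h). Where 0 were called, without the C17.2a or the C17.2b 6 h pair, 396 and 296 genes had an unadjusted p under 0.05, and the remaining 6 h pair was assumed to vary like the others. The 64 members called over the later pairs became 120 with the 12 h pairs only and 3 to 139 with a pair left out. They were 50 to 77 under the other pseudocounts, filters and scaling. The cause of these shifts was not tested. Fits of a single time or with a pair left out had fewer residual degrees of freedom than the main ones.

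Direction over the later pairs turned for 4 members with fold changes near 0. Camk2a, at -0.01 on the log2 scale, was at 0.032 with a pseudocount of 5, 0.67 with the 12 h pairs only and 0.48 without the C17.2a 24 h pair, and Hspg2, at -0.01, was at 0.020, 0.56 and 0.70. Vwa1 (0.27) was at -0.030 without the C17.2b 12 h pair. Ano8 (0.16) was at -0.23 without the C17.2a 12 h, -0.088 without the C17.2b 12 h and -0.10 without the C17.2b 24 h pair. No group had a second library, so the pairs of line and time were the block in every fit. The labels give no replicate numbers, so no further block could be added. At the depth of the T3 libraries of 6 h, levels under 0.298 RPM in C17.2a and 0.319 RPM in C17.2b are not distinguished from 0.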
